A study of Homo sapiens with 6 samples.

Results

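The 40 genes described here carry the glutathione system: cysteine and glutathione synthesis, glutathione breakdown, the reduction of disulfides, the glutathione peroxidases, the glutathione transferases and the enzymes that clear aldehydes with glutathione as cofactor. They were taken by symbol from a table of 61806 genes, and each symbol matched a single row. RNA was sequenced from 3 libraries of LAPTM4B knockdown cells and 3 control libraries, whose titles carry the tags shLAP and NC and whose genotype is given as LAPTM4B knockdown and WT. All libraries carry the cell line label HepG2, a hepatoma line of human origin, with liver as tissue. The design text adds that the cells were CD133-positive, CD133 being the product of PROM1 and a common surface marker of tumour cells with stem-like traits. No source used here gives the hairpin, the vector, what the control construct held or how many clones were used. Nor is it stated whether replicates came from different cultures: the tests below weigh differences against the library-to-library spread alone, which may be technical.

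Glutathione is made from glutamate, cysteine and glycine. Glutamate-cysteine ligase, built from a catalytic subunit (GCLC) and a modifier subunit (GCLM), carries out the rate-limiting step, and cysteine comes from imported cystine or from methionine through transsulfuration. Peroxidases use glutathione to reduce peroxides, transferases attach it to electrophiles, and glutathione reductase returns the oxidised form. The liver is a main site of glutathione production in the body, and many of these genes are known targets of the oxidative stress factor NRF2.

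Gene counts summed to 15204269 to 16303949 in the knockdown libraries and to 15667396 to 19987318 in the control libraries, so that 0 counts in a library still allows a level of up to 3 counts, which is 0.150 to 0.197 CPM (counts scaled to the library total) depending on the library and covers counting error only. LAPTM4B itself was at 72.0, 75.3 and 74.4 FPKM in the knockdown libraries, against 100.1, 100.2 and 106 FPKM in the control libraries. It fell by 30.6% without overlap between the groups (edgeR, adjusted p = 3.25e-12), so the transcript was reduced and not absent. The labelled cell type was compared with 11 hepatocyte markers: 7 had at most 3 counts in every library, among them ALB, APOA1 and APOB with 0 counts in all 6 libraries. The summed level of that list was 1.64 to 1.77 FPKM in knockdown libraries and 3.56 to 3.95 FPKM in control libraries. Most of it was FGB, with 84 to 93 counts per knockdown and 197 to 233 per control library (edgeR adjusted p = 2.03e-08). SERPINA1 was also lower in the knockdown, with 0 to 5 against 35 to 49 counts (edgeR adjusted p = 4.93e-07). HNF4A, with 52 to 66 against 62 to 104 counts, did not pass (edgeR adjusted p = 0.172). PROM1 had 6 to 12 counts per knockdown library and 1 to 3 per control library. These values go against the labels, although FGB and HNF4A were detected. ALB, APOA1 and APOB were at 0, and PROM1 was barely detected in cells described as CD133-positive. The identity of the line was not resolved here. Fibroblast markers (6 genes, none at 0 in every library) summed to 2.06 to 2.34 FPKM in knockdown and 1.07 to 1.43 FPKM in control libraries. Most of that sum was COL1A1, which did not pass (edgeR adjusted p = 0.0881), while PDGFRB and FAP were 10.8-fold and 7.87-fold higher in the knockdown at low levels. Endothelial markers (5 genes, none at 0 in every library) summed to 20.8 to 23.1 FPKM in knockdown and 16.9 to 18.3 FPKM in control libraries, nearly all of it ESAM (21.8 FPKM in knockdown and 17.4 FPKM in control libraries on average). CDH5, VWF and KDR had at most 5 counts in any library, and PECAM1 was lower in the knockdown (log2 change -3.25; edgeR adjusted p = 4.63e-06). Leukocyte markers (5 genes, none at 0 in every library) summed to 0.42 to 0.66 FPKM in knockdown and 1.22 to 1.55 FPKM in control libraries, and LAPTM5 was the one called, lower in the knockdown (edgeR adjusted p = 7.76e-06). In bulk RNA, fewer cells of a type and less RNA per cell cannot be told apart, and the part of these markers in the results was not tested.

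Of the 40 genes, 36 had enough counts to be tested. In the knockdown 19 rose, 7 fell and 10 did not pass (edgeR quasi-likelihood test, Benjamini-Hochberg adjustment over 16354 genes, threshold 0.05). Much of the transcriptome differed between the groups: 55.9% of all genes tested were called, 28.0% higher and 27.9% lower. Whether this came from the knockdown or from another difference between the groups was not tested. The 72.2% of tested glutathione genes that were called must be read against that share, as must the counts by role below. The higher calls made up 52.8% and the lower calls 19.4% of the 36. A rise of at least 1.5-fold was called for 12 of them (33.3%), against 8.66% of all genes tested, and a fall of that size for 3 (8.3%), against 13.2%. The members were chosen with earlier results of these data known, so these shares only describe the list. The median log2 change was 0.24 over the 36 genes and 0.01 over all genes tested, and the median size of the change regardless of sign was 0.45 and 0.30. In TMM-normalised CPM the groups did not overlap for 27 of the 36 (75.0%), against 60.4% of all genes tested.

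**Figure D1:**
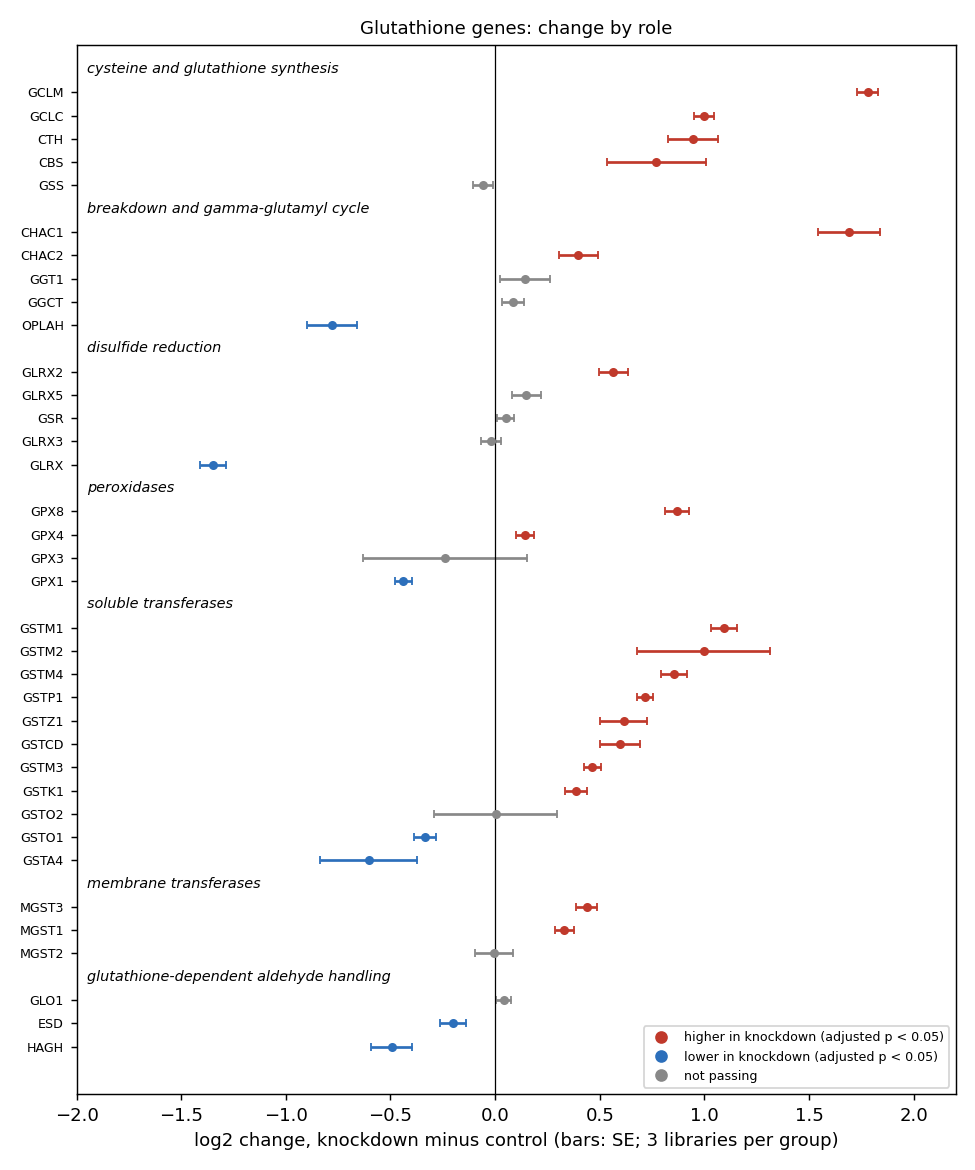
Log2 change of each tested gene, knockdown minus control, with its SE (edgeR, 3 libraries per group), sorted within its role; red marks genes higher in the knockdown, blue genes lower and grey genes that did not pass. The synthesis and soluble transferase genes lie mostly to the right of 0, from GCLM at 1.78 to GSTA4 at -0.60, and GLRX lies furthest to the left at -1.35.

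Levels below are the deposited FPKM, a count scaled by the gene's exonic length and by the library's total count, given for libraries 1 to 3 of each group; they allow levels of different genes to be compared. Changes come from the counts with TMM scaling, on which the median gene stood at 0.01; on log2 FPKM the median gene stood at 0.07, so FPKM ratios run slightly above the tested changes.

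The promoters of these genes were searched for a pair of short motifs, the core of the antioxidant response element bound by NRF2 with small MAF proteins (TGACNNNGC) and the core of the amino acid response element bound by ATF4 with C/EBP partners (TGATGNAA), on both strands, from 250 bases before to 50 bases after each RefSeq transcription start (GRCh38.p14). Windows were found for 34 of the 40 genes, 47 windows in all; GSS, GGCT, OPLAH, GSR, GLRX3 and MGST2 had none. The antioxidant core was present in 9 member windows (19.2%), against 13.4% of all 35116 windows, and the amino acid core in 3 (6.38%), against 3.62%. The antioxidant core lay near 9 genes, of which 5 were higher in the knockdown, 2 lower, 1 did not pass and 1 was too low to test, so it occurred beside genes of every outcome. The 3 genes with the amino acid core, CHAC1, GPX8 and GSTCD, were among the 52.8% of tested members called higher, and so few genes say nothing of the motif. The stretches below show matches beside the genes that the results turn on, including a gene that fell (GSTO1) and a gene that was barely detected (GPX2). Capitals mark the match, read on the gene's own strand, so that some matches appear as the reverse complement of the motif.
GCLM: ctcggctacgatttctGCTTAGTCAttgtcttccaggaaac
GSTP1: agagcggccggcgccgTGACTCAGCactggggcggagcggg
GSTM1: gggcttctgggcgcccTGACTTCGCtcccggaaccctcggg
GSTO1: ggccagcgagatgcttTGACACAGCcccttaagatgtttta
GPX2: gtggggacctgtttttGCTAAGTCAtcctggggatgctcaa
CHAC1: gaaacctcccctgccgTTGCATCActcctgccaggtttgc
GPX8: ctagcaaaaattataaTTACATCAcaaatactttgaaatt
The matches begin 34 bases upstream of the start of GCLM (chr1:93909440-93909480, minus strand), 66 upstream of GSTP1 (chr11:67583730-67583770, plus), 165 upstream of GSTM1 (chr1:109687636-109687676, plus), 161 upstream of GSTO1 (chr10:104254715-104254755, plus), 122 upstream of GPX2 (chr14:64942843-64942883, minus), 209 upstream of CHAC1 (chr15:40953246-40953285, plus) and 189 upstream of GPX8 (chr5:55159966-55160005, plus). A match to so short a motif is a description of the letters and not of binding.

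Among the synthesis genes 4 of 5 were higher in the knockdown and none lower, beside 28.0% higher and 27.9% lower among all genes tested. GCLM, the modifier subunit that raises the activity of the ligase (ENSG00000023909, chromosome 1, 93885199 to 93909456, hg38), was at 27.6, 29.7 and 28.2 FPKM in knockdown libraries, against 7.35, 8.36 and 8.14 FPKM in control libraries. Every knockdown library lay far above the highest control library, and the log2 change was 1.78 (SE 0.05; edgeR adjusted p = 8.4e-21), the largest among the tested members. GCLC, the catalytic subunit (ENSG00000001084, chromosome 6, 53497341 to 53616970), was at 14.6, 15.7 and 16 FPKM in knockdown libraries, against 7.68, 7.68 and 6.93 FPKM in control libraries. It rose 1.997-fold without overlap (log2 change 1.00, SE 0.05; edgeR adjusted p = 1.23e-15). The subunit genes therefore rose by different amounts: the GCLM to GCLC ratio of FPKM was 1.88, 1.89 and 1.76 in knockdown libraries and 0.957, 1.09 and 1.18 in control libraries. The difference in log2 ratio was 0.79, with p = 0.1 in an exact two-sided permutation test, the smallest p that 3 against 3 libraries allow (0.125 adjusted over 5 ratios).

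GSS, glutathione synthetase, which joins glycine to the dipeptide that the ligase makes, stood at 14.6, 15.2 and 15.4 FPKM in knockdown libraries and at 14.98, 14.4 and 15.8 FPKM in control libraries. These ranges overlapped (log2 change -0.06, SE 0.05; edgeR adjusted p = 0.307). GSS made up 22.5% ± 0.140 of the summed FPKM of the 5 synthesis genes in knockdown libraries and 43.6% ± 1.30 in control libraries (SD, n = 3 each), while GCLM made up 42.5% ± 1.53 and 23.1% ± 1.47. The most abundant synthesis transcript per length was thus GCLM in the knockdown and GSS in the control.

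Transsulfuration is carried out by CBS, cystathionine beta-synthase, and CTH, cystathionine gamma-lyase, which releases cysteine. CTH was at 7.27, 6.46 and 8.54 FPKM in knockdown libraries, against 3.61, 3.2 and 4.21 FPKM in control libraries, and rose 1.93-fold without overlap (log2 change 0.95, SE 0.12; edgeR adjusted p = 2.16e-07). CBS was far lower, at 0.61, 0.51 and 0.81 FPKM in knockdown libraries, against 0.40, 0.46 and 0.24 FPKM in control libraries. Its log2 change of 0.77 (SE 0.24) passed (edgeR adjusted p = 0.00744), but not without knockdown replicate 3 (0.0818) or with limma on unfiltered log2 FPKM (0.202). The CTH to CBS ratio was 11.9, 12.7 and 10.5 in knockdown libraries and 9.03, 6.96 and 17.5 in control libraries, which overlap (difference in log2 ratio 0.18, exact two-sided permutation p = 0.7); the difference was -0.11 without control replicate 2 and 0.56 without control replicate 3.

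The GENCODE 29 annotation also lists a near-identical copy of CBS, CBSL. Its transcript matched 99.96% of 2514 aligned bases, so reads may be assigned to either. Whether CBSL is a gene of its own was not tested, and the CTH to CBS ratio used CBS without CBSL. The pair held 71, 56 and 133 counts in knockdown libraries and 62, 52 and 66 counts in control libraries. CBSL took 9.9%, 5.4% and 32.3% of them in knockdown libraries and 19.4%, 5.8% and 50% in control libraries. For the summed pair the log2 change was 0.66 (edgeR adjusted p = 0.0143), and it was 0.26 (edgeR adjusted p = 0.338) when knockdown replicate 3, which held the 133 counts, was left out; that last fit was chosen after seeing the data.

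**Figure D2:**
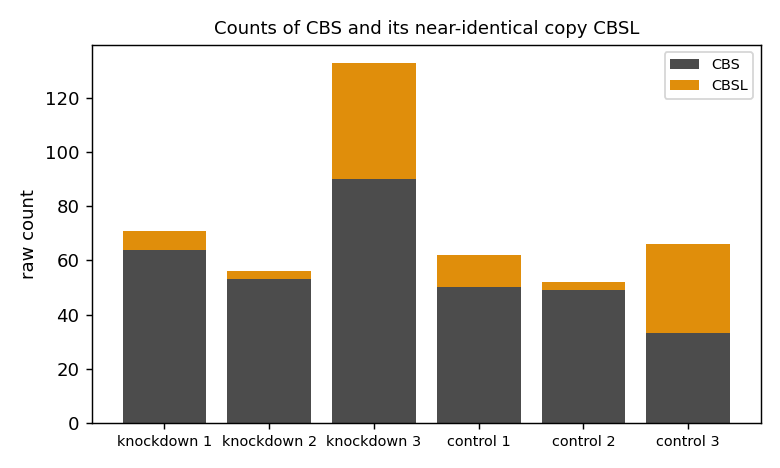
Raw counts of CBS and of its near-identical copy CBSL, stacked, in the 3 knockdown and 3 control libraries. The sum is 133 in knockdown replicate 3 and between 52 and 71 in the other libraries, and the share of CBSL differs widely between libraries.

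Genes of glutathione breakdown were called in both directions. Among the 5 with enough counts, 2 were higher, 1 was lower and 2 did not pass. The called share of 60.0% was near the 55.9% of all genes tested. CHAC1, a cytosolic gamma-glutamylcyclotransferase that degrades glutathione and is induced by ATF4 (ENSG00000128965, chromosome 15, 40952962 to 40956512), was at 6.28, 6.16 and 5.95 FPKM in knockdown libraries, against 1.94, 1.37 and 2.07 FPKM in control libraries. The groups were well separated, and the log2 change was 1.69 (SE 0.15; edgeR adjusted p = 2.3e-10). CHAC2, a related enzyme with slower turnover, was more abundant and changed less, with 14.0, 15.02 and 14.8 FPKM in knockdown libraries against 10.4, 11.2 and 10.4 FPKM in control libraries (log2 change 0.40, SE 0.09; edgeR adjusted p = 6.2e-04). The CHAC1 to CHAC2 ratio was 0.449, 0.410 and 0.402 in knockdown libraries and 0.187, 0.123 and 0.199 in control libraries. Its log2 difference of 1.34 again reached the smallest p possible (exact two-sided permutation p = 0.1).

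OPLAH, 5-oxoprolinase, which turns the product of the cyclotransferases back into glutamate, fell in the knockdown. It was at 1.92, 2.58 and 2.38 FPKM in knockdown libraries, against 4.34, 3.48 and 3.49 FPKM in control libraries, with no overlap (log2 change -0.78, SE 0.12; edgeR adjusted p = 3.35e-06). GGCT, the cyclotransferase that acts on gamma-glutamyl amino acids and the most abundant gene of this role, was at 37.0, 39.2 and 36.1 FPKM in knockdown libraries and 33.6, 33.5 and 34.4 FPKM in control libraries (log2 change 0.09, SE 0.05; edgeR adjusted p = 0.186); limma on log2 FPKM called it higher (adjusted p = 0.0129). GGT1, the surface gamma-glutamyltransferase that starts the breakdown of extracellular glutathione, was at 2.16 to 2.61 FPKM in knockdown libraries and 2.06 to 2.14 FPKM in control libraries (edgeR adjusted p = 0.320). GGT1 shares 306 exonic bases with the abundant gene SNRPD3 and has several near-copies, so its counts are uncertain. GGT7 had 1 to 2 counts per knockdown library and 1 to 5 per control library and was not tested.

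**Figure D3:**
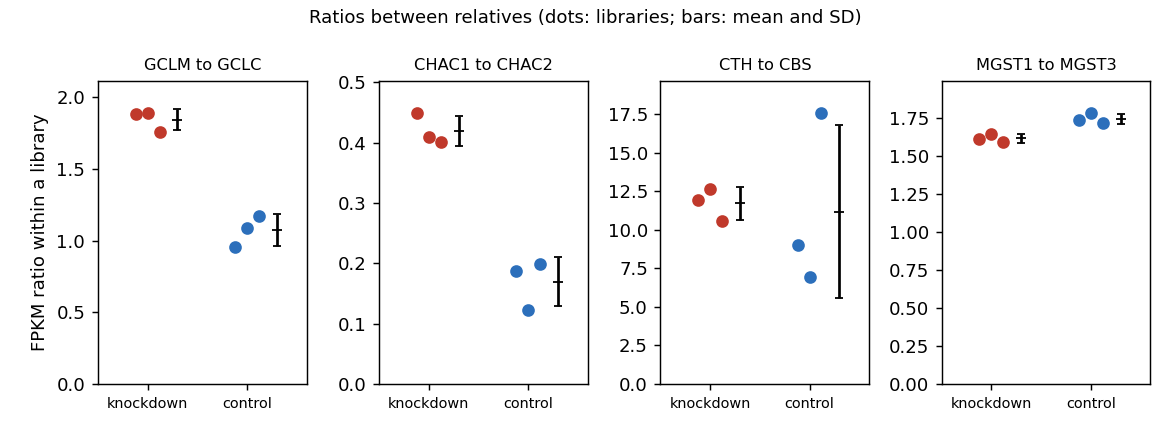
FPKM ratios between relatives within each library, with mean and SD (n = 3 per group); each vertical axis starts at 0. GCLM to GCLC and CHAC1 to CHAC2 are higher in every knockdown library, CTH to CBS overlaps, and MGST1 to MGST3 is slightly lower in the knockdown (1.62 ± 0.0283 against 1.75 ± 0.0327).

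Disulfide reduction was split between glutaredoxins, small enzymes that remove glutathione from proteins, and glutathione reductase. Neither direction prevailed, with 1 gene higher, 1 lower and 3 not passing. GLRX, the main cytosolic glutaredoxin (ENSG00000173221, chromosome 5, 95751319 to 95822726), was at 4.48, 4.53 and 4.61 FPKM in knockdown libraries, against 11.6, 11.6 and 10.1 FPKM in control libraries. Its log2 change of -1.35 (SE 0.06; edgeR adjusted p = 3.73e-16) was the deepest fall among the tested members, a 2.55-fold lower level. GLRX2, a mitochondrial and nuclear glutaredoxin, moved the other way, with 6.41, 6.17 and 6.58 FPKM in knockdown libraries and 4.07, 4.35 and 4.01 FPKM in control libraries (log2 change 0.57, SE 0.07; edgeR adjusted p = 6.63e-08). GLRX2 shares 481 exonic bases with TROVE2 on the opposite strand, which averaged 101 CPM; whether counting used the strand is not stated in the sources here, and reads from the shared stretch cannot be told apart; it covers 481 of the 6210 exonic bases of GLRX2.

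The other disulfide genes did not pass. GSR, glutathione reductase, was the most abundant of them, at 42.2, 42.1 and 41.8 FPKM in knockdown libraries and 38.8, 38.7 and 39.2 FPKM in control libraries (log2 change 0.05, SE 0.04; edgeR adjusted p = 0.285); limma on log2 FPKM called it higher (adjusted p = 0.00554). GLRX5, which serves mitochondrial iron-sulphur cluster assembly, was at 16.5 to 18.7 FPKM in knockdown libraries and 13.7 to 16.1 FPKM in control libraries (log2 change 0.15, SE 0.07; edgeR adjusted p = 0.0733), and passed without control replicate 3 (0.0106) and with limma on log2 FPKM (0.0411). GLRX3, a cytosolic iron-sulphur factor, was at 15.4 to 16.2 FPKM in knockdown libraries and 15.03 to 15.97 FPKM in control libraries (log2 change -0.02, SE 0.05; edgeR adjusted p = 0.779). The summed FPKM of the 5 genes was 86.2 ± 1.34 in knockdown and 84.5 ± 1.16 in control libraries (SD, n = 3 each).

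Of the 4 peroxidases tested, 2 were higher, 1 was lower and 1 did not pass. The called share was 75.0%, beside 55.9% of all genes tested. GPX1, the abundant cytosolic selenoprotein that reduces hydrogen peroxide (ENSG00000233276, chromosome 3, 49357176 to 49358353), was at 159.7, 177 and 165 FPKM in knockdown libraries, against 223, 208 and 221 FPKM in control libraries. It fell without overlap (log2 change -0.44, SE 0.04; edgeR adjusted p = 1.13e-09). Its pseudogene GPX1P1 averaged 93.3 counts, where GPX1 had 2906 to 5193. GPX4, the selenoprotein that reduces lipid hydroperoxides in membranes and restrains ferroptosis, was at 64.2, 68.1 and 66.2 FPKM in knockdown libraries and 58.8, 55.0 and 58.5 FPKM in control libraries. Its small rise (log2 change 0.14, SE 0.04; edgeR adjusted p = 0.00731) was lost without control replicate 2 (0.0879) or knockdown replicate 2 (0.055).

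GPX8, a membrane peroxidase of the endoplasmic reticulum that uses cysteine in place of selenocysteine (ENSG00000164294, chromosome 5, 55160167 to 55167297), had the largest change of the role. It was at 21.4, 22.3 and 19.6 FPKM in knockdown libraries, against 10.6, 10.8 and 11.7 FPKM in control libraries (log2 change 0.87, SE 0.06; edgeR adjusted p = 1.11e-12). GPX1 supplied 65.6% ± 0.572 of the summed peroxidase FPKM in knockdown and 75.9% ± 0.133 in control libraries (SD, n = 3 each), and GPX8 8.26% ± 0.465 and 3.86% ± 0.218. GPX3, the secreted plasma peroxidase, had 17 to 27 counts per knockdown library and 9 to 49 per control library and did not pass (edgeR adjusted p = 0.632); its log2 change was -0.24, and 0.42 without control replicate 1. GPX2, a peroxidase of the gut epithelium that is a known NRF2 target, had 0 to 2 counts per knockdown library and 1 to 3 per control library, and GPX7, the other endoplasmic reticulum member, had 0 counts in all 6 libraries, under the limit of 0.150 to 0.197 CPM given above.

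**Figure D4:**
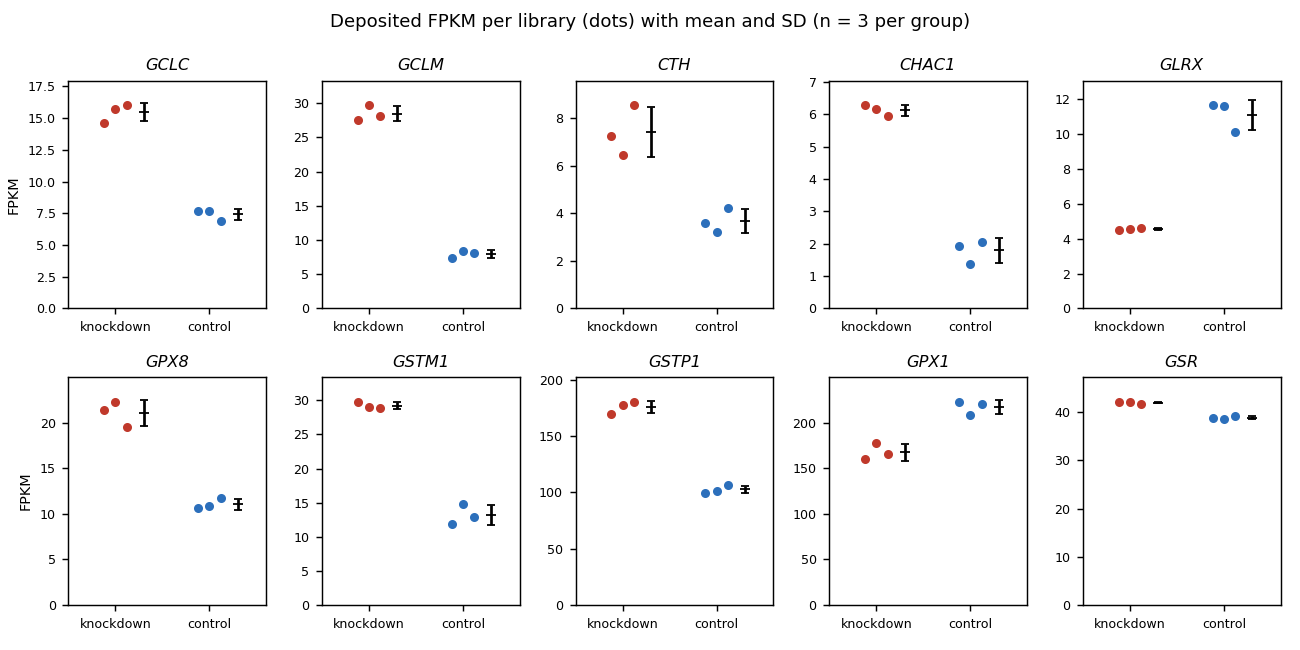
Deposited FPKM of 10 members in each library (dots), with the mean and SD of the 3 libraries of each group; each vertical axis starts at 0. The knockdown libraries lie above the control libraries for GCLC, GCLM, CTH, CHAC1, GPX8, GSTM1 and GSTP1 and below them for GLRX and GPX1; GSR, at 42.0 against 38.9 FPKM on average, did not pass on counts.

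The soluble transferases were the largest group and mostly rose: of 11 tested, 8 were higher, 2 lower and 1 did not pass. The higher calls were 72.7% and the lower calls 18.2% of the 11, beside 28.0% and 27.9% of all genes tested. The summed FPKM of the soluble transferases was 317, 325 and 331 in knockdown libraries, against 210.1, 213 and 222 in control libraries. GSTP1, the pi-class enzyme that is scarce in normal hepatocytes and abundant in many tumours (ENSG00000084207, chromosome 11, 67583742 to 67586656), was the most abundant, at 170.1, 178 and 181 FPKM in knockdown libraries, against 99.9, 101 and 107 FPKM in control libraries. It rose 1.64-fold without overlap (log2 change 0.72, SE 0.04; edgeR adjusted p = 9.29e-15), and its share of the summed transferase FPKM was 54.3% ± 0.560 in knockdown and 47.7% ± 0.244 in control libraries (SD, n = 3 each).

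Mu-class genes lie together on chromosome 1 between 109656099 (GSTM4) and 109741038 (GSTM3), and all 4 members tested rose. GSTM1 was at 29.8, 28.96 and 28.9 FPKM in knockdown libraries, against 11.8, 14.7 and 12.9 FPKM in control libraries, the largest change of the transferases (log2 change 1.09, SE 0.06; edgeR adjusted p = 4.88e-14). GSTM4 was at 10.6, 10.9 and 10.6 FPKM in knockdown libraries, against 5.72, 5.28 and 5.94 FPKM in control libraries (log2 change 0.86, SE 0.06; edgeR adjusted p = 4.45e-12). GSTM3, the most abundant of the 4, was at 48.3, 48.4 and 49.8 FPKM in knockdown libraries, against 32.5, 33.4 and 35.9 FPKM in control libraries, and rose less (log2 change 0.46, SE 0.04; edgeR adjusted p = 2.63e-10).

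GSTM2 had the lowest level of the 4, with 34, 26 and 33 counts in knockdown libraries and 17 counts in each control library, or 0.24, 0.19 and 0.22 FPKM against 0.10, 0.12 and 0.09 FPKM. It passed with edgeR (log2 change 1.00, SE 0.32; adjusted p = 0.00947) but not with DESeq2 (adjusted p = 0.0524) or with limma on unfiltered log2 FPKM, where the log2 change was 0.64 (adjusted p = 0.19). GSTM2 shares 559 exonic bases with GSTM1 and 375 with GSTM4 in GENCODE 29, so its reads may belong to either neighbour. With GSTM1, GSTM2, GSTM4 and GSTM5 summed, the counts were 2081, 2035 and 2158 in knockdown libraries and 1135, 1049 and 1315 in control libraries, a log2 change of 0.98 (edgeR adjusted p = 3.65e-16). The GSTM3 to GSTM2 ratio was 201, 255 and 226 in knockdown and 325, 278 and 398 in control libraries (exact two-sided permutation p = 0.1).

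**Figure D5:**
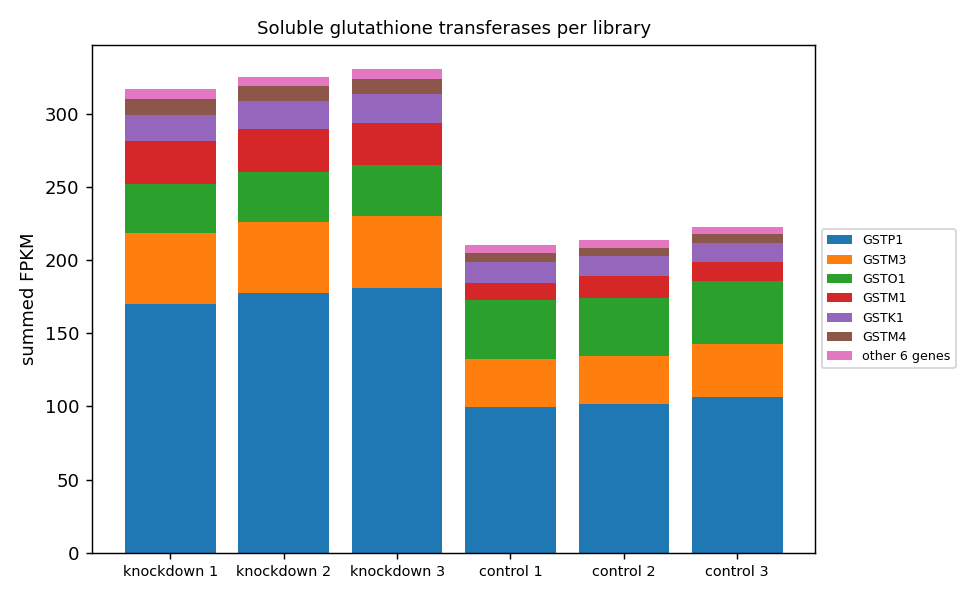
Summed FPKM of the 12 soluble transferase genes in each library, stacked by gene; the vertical axis starts at 0. The sum is 317 to 331 in the knockdown and 210.1 to 222 in the control libraries, with GSTP1 the widest band in each. The GSTO1 band is narrower in the knockdown.

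Rises were also called for 3 transferases of other classes. GSTZ1, the zeta-class enzyme maleylacetoacetate isomerase of tyrosine breakdown, was at 1.70, 1.56 and 1.69 FPKM in knockdown libraries, against 1.00, 1.13 and 0.98 FPKM in control libraries (log2 change 0.61, SE 0.11; edgeR adjusted p = 4.23e-05). GSTCD, named for a domain of the transferase C-terminal type, was at 3.51, 3.19 and 3.48 FPKM in knockdown libraries, against 2.36, 2.02 and 2.06 FPKM in control libraries (log2 change 0.60, SE 0.09; edgeR adjusted p = 5.81e-06). GSTCD shares 331 exonic bases with INTS12 on the opposite strand, which averaged 17.7 CPM. GSTK1, the kappa-class enzyme of mitochondria and peroxisomes, was at 17.7 to 19.4 FPKM in knockdown libraries and 13.0 to 14.5 FPKM in control libraries (log2 change 0.39, SE 0.05; edgeR adjusted p = 5.7e-07).

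GSTO1 and GSTA4 fell. GSTO1, an omega-class enzyme that acts more as a thiol reductase than as a classical transferase, was at 33.3, 34.1 and 34.7 FPKM in knockdown libraries, against 40.4, 39.6 and 43.2 FPKM in control libraries (log2 change -0.33, SE 0.05, edgeR adjusted p = 5.58e-06). Its promoter window holds the TGACACAGC match shown above and another antioxidant core match, TGACTGAGC, that begins at position -226. The share of GSTO1 in the summed transferase FPKM was 10.5% ± 0.0103 in knockdown and 19.1% ± 0.455 in control libraries (SD, n = 3 each). GSTA4, which conjugates the lipid aldehyde 4-hydroxynonenal, was at 1.48, 0.85 and 1.11 FPKM in knockdown libraries, against 1.74, 1.76 and 1.52 FPKM in control libraries. Its call was weak (log2 change -0.60, SE 0.23; edgeR adjusted p = 0.0288) and was lost with DESeq2 (0.116), with limma on log2 FPKM (0.06), and without control replicate 1 (0.0726) or 2 (0.0577) or knockdown replicate 2 (0.153) or 3 (0.0782). GSTO2, with 26 to 32 counts per knockdown library and 22 to 43 per control library, did not pass (log2 change 0.00, SE 0.29; edgeR adjusted p = 0.996). GSTA1, an alpha-class enzyme that is among the abundant transferases of normal liver, had 0 counts in all 6 libraries.

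The membrane transferases of the MAPEG family rose in 2 of 3 cases, where 28.0% of all genes tested were called higher. MGST1, which protects membranes of the endoplasmic reticulum and mitochondria, was at 14.5, 15.6 and 14.7 FPKM in knockdown libraries, against 11.5, 11.3 and 11.4 FPKM in control libraries (log2 change 0.33, SE 0.04; edgeR adjusted p = 5.76e-07). MGST3 was at 8.98 to 9.45 FPKM in knockdown libraries and 6.34 to 6.62 FPKM in control libraries (log2 change 0.44, SE 0.05; edgeR adjusted p = 4.25e-08). MGST2, which can make leukotriene C4, was at 5.84 to 6.12 FPKM in knockdown libraries and 5.35 to 6.36 FPKM in control libraries and did not pass (log2 change -0.01, SE 0.09; edgeR adjusted p = 0.963). The MGST1 to MGST3 ratio was lower in each knockdown library than in any control library, by 0.11 on the log2 scale (exact two-sided permutation p = 0.1).

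Genes of glutathione-dependent aldehyde handling were the role in which no member rose: 2 of 3 fell and 1 did not pass. Among all genes tested, 27.9% were called lower. GLO1, glyoxalase 1, which acts on the adduct of methylglyoxal and glutathione, was abundant. It was at 86.9, 84.7 and 84.6 FPKM in knockdown libraries and 79.8, 78.9 and 79.9 FPKM in control libraries (log2 change 0.04, SE 0.04, edgeR adjusted p = 0.364). With limma on log2 FPKM, GLO1 was called higher (adjusted p = 0.00808). HAGH, glyoxalase 2, which releases glutathione again, was at 2.07 to 2.44 FPKM in knockdown libraries and 2.96 to 3.24 FPKM in control libraries (log2 change -0.49, SE 0.10; edgeR adjusted p = 1.09e-04); it shares 254 exonic bases with FAHD1 on the opposite strand, which averaged 20.5 CPM. ESD, S-formylglutathione hydrolase of formaldehyde clearance, was at 10.7 to 11.8 FPKM in knockdown libraries and 11.9 to 12.9 FPKM in control libraries (log2 change -0.20, SE 0.06; edgeR adjusted p = 0.00769). The ESD call was lost without control replicate 3 (0.0521) or knockdown replicate 1 (0.0527) and with limma on log2 FPKM (0.0553).

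Around these genes, 53 others of cystine and glutathione transport, methionine and sulphur metabolism, further transferases, dipeptidases and the selenocysteine machinery were listed; 52 were matched, and 33 had enough counts to be tested. There were 11 higher, 9 lower and 13 not passing, a called share of 60.6% beside 55.9% of all genes, with a median log2 change of -0.03. SLC7A11, the cystine importer xCT, was at 53.0, 53.9 and 53.4 FPKM in knockdown libraries, against 16.7, 18.0 and 12.4 FPKM in control libraries (log2 change 1.71, SE 0.07; edgeR adjusted p = 1.35e-17). SLC3A2, its partner subunit, was at 69.9 ± 1.31 FPKM in knockdown and 21.6 ± 0.787 FPKM in control libraries (SD, n = 3 each; edgeR adjusted p = 5.95e-23). PTGES, a glutathione-dependent prostaglandin E synthase of the MAPEG family, was at 87.5 ± 0.448 FPKM in knockdown and 44.6 ± 1.90 FPKM in control libraries (edgeR adjusted p = 6.05e-16). Among the genes that fell, SQOR, which oxidises hydrogen sulphide in mitochondria, was at 4.96 ± 0.534 FPKM in knockdown and 8.85 ± 0.150 FPKM in control libraries (SD, n = 3 each; edgeR adjusted p = 2.33e-09). MTR, methionine synthase, and SLC25A40, a carrier linked to mitochondrial glutathione import, had log2 changes of -0.56 (edgeR adjusted p = 1.1e-10) and -0.49 (edgeR adjusted p = 6.94e-08).

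Selenoprotein peroxidases depend on a dedicated insertion machinery, whose genes in the list were grouped after their values were seen. SEPHS2, which makes the selenium donor, had a log2 change of 0.31 (edgeR adjusted p = 6.33e-05). SECISBP2 and EEFSEC, a binding protein and an elongation factor of this machinery, had log2 changes of -0.39 (edgeR adjusted p = 2.61e-06) and -0.46 (edgeR adjusted p = 6.6e-05). SEPSECS had one of -0.32 (edgeR adjusted p = 0.0177), although its groups overlapped. It was at 11.5 to 14.5 TMM-normalised CPM in knockdown and 14.4 to 18.1 in control libraries. PSTK and TRNAU1AP did not pass (edgeR adjusted p = 0.688 and 0.0666).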

How the data were processed

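The deposited table held, per the file headers, the count of reads (whole numbers) beside FPKM for each gene in each library, and the exonic length in bases, a quantity other than an expression unit. FPKM recomputed from count, length and library total matched 100% of the deposited FPKM values within 0.0051. Per the submitters' processing notes, coordinates are on hg38; which aligner, counter, annotation release and strand setting the authors used was not found in the labels or headers. RNA was extracted with Trizol and libraries made with a TruSeq kit, per the labels' protocols.

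The test on counts was that of edgeR 4.0.16, run in R 4.3.3 (TMM, filterByExpr, quasi-likelihood F test, two-sided, adjusted over 16354 genes); the SE is the size of the log2 change divided by the square root of F. The step was checked on simulated counts. Alternatives were DESeq2 1.42.0, limma 3.58.1 on log2(FPKM + 0.1), keeping genes that averaged 1 FPKM or more in a group (also with pseudocount 1, and unfiltered), median-of-ratios factors, no count filter, the replicate number as a block, each library left out, and summed gene copies. Ratios were tested by exact permutation. Exon overlaps and near-copies came from GENCODE 29 (blastn 2.17.0), promoters from RefSeq.

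The members and lists were chosen with earlier results of these data known. All members are accounted for, and values per library are given for those called with at least a 1.5-fold change and for the most abundant of each role. Other pathway genes are named if among the 3 smallest p-values in a direction. The genes of selenocysteine insertion are an exception, since they were grouped and named after their values were seen. SLC25A39 is another exception, named for comparison with SLC25A40 after its values were seen. No 2 libraries were identical, and the chi-square per gene between libraries of a group was 1.89 to 4.38, above sampling noise. Protein sequences were not analysed here.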

Additional observations from a re-analysis of the deposited data

How the results depend on the processing

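Over 13 alternative fits, members called higher numbered 18 to 21 and lower 5 to 7, and 21 of the 26 called members kept their call and direction in every alternative; the 5 that did not (CBS, GPX4, GSTA4, GSTM2 and ESD) are given with their values in the text. Over all genes, leaving out a library gave 4056 to 4635 higher and 4144 to 4606 lower calls, and DESeq2 3725 and 3897. The near-even split did not hold with limma on log2 FPKM, which called 4599 higher and 3122 lower (4611 and 3131 with a pseudocount of 1, 4293 and 3142 unfiltered). Same-numbered libraries did not deviate together (r = 0.02, -0.05 and -0.04 across genes). Those deviations are from a mean of only 3 libraries, so they cannot show whether a number marks a shared culture or day. With the replicate block 4441 genes were higher and 4408 lower, 19 and 7 members kept these counts, and no member's call changed. By role, limma on log2 FPKM called 3 disulfide genes higher with either pseudocount (2 without a filter), 1 soluble transferase lower, and 1 aldehyde gene higher and 1 lower; DESeq2 called 1 soluble transferase lower. Without a library in turn, the counts were 1 to 2 for disulfide genes higher, 1 to 2 for peroxidases higher, 1 to 2 for soluble transferases lower and 1 to 2 for aldehyde genes lower.

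Changes of sign concerned members that did not pass. Leaving out a library moved the log2 change of GLRX3 between -0.05 and 0.0236 (0.0236 and 0.0111 without control or knockdown replicate 3), of GPX3 between -0.60 and 0.42, of GSTO2 between -0.14 and 0.25 (-0.0823 without control replicate 3, -0.018 and -0.035 without knockdown replicate 2 or 3) and of MGST2 between -0.06 and 0.0668 (0.0668 without control replicate 1, 0.0073 and 0.0097 without knockdown replicate 1 or 3), and the difference in CTH to CBS ratio between -0.11 and 0.56. With limma on log2 FPKM the change was 0.0048 for GSS (0.0045 with a pseudocount of 1), 0.045 for GLRX3 (0.042), 0.061 for MGST2 (0.052) and, without a filter, 0.030 for GPX3; with median-of-ratios factors GSTO2 was at -0.0032. The cause was not tested, beyond the higher median of all genes on log2 FPKM. GPX2 to GPX1 could not be computed with a library at 0. Depth limits GSTA4, GSTM2, GSTO2, GPX3 and CBS, which had under 100 counts in every library.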
